A study of Mus musculus with 3 samples.

Results

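A set of 40 genes of mitosis and the kinetochore was followed in mouse female primordial germ cells, the embryonic precursors of oocytes. The members were chosen by function, and all 40 were rows of the deposited table of 14133 genes. They comprise the kinases and partners of mitotic entry, the chromosomal passenger complex, the spindle checkpoint, regulators of the anaphase-promoting complex, centromere and kinetochore proteins, spindle and cytokinesis proteins, and the condensin I complex. The cells came from fetal ovaries of C57BL/6 mice at embryonic day (E) 12.5, E14.5 and E16.5 and were sorted for the fluorescence of an Oct4-EGFP reporter. All 3 groups carried this reporter and none was treated. Each stage was 1 library made with a droplet kit for RNA 3′ ends, so stage and library cannot be told apart, and no test across stages was possible. The number of embryos behind each library is not given in the sources used here.

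Mitosis is driven by Cdk1 with its B-type cyclins and by the Polo-like and Aurora kinases. Condensins compact the chromosomes, kinetochores built on the centromere bind spindle microtubules, and the spindle checkpoint holds back the anaphase-promoting complex until every chromosome is attached. Female mouse germ cells divide by mitosis when they first populate the ovary and then enter meiosis, in which they replicate their DNA and stay for a long time in the prophase of the first meiotic division.

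The table held 4706 cells at E12.5, 9075 at E14.5 and 5363 at E16.5, with medians of 26691.5, 10960 and 12659 unique molecular identifiers (UMIs, each a single captured RNA molecule) per cell. Clustering set apart 19, 164 and 23 cells with pregranulosa markers, the somatic support cells of the ovary, and left 4687, 8911 and 5340 germ-cell-like cells, on which all values below rest. Their germ cell markers summed to 8535, 9510 and 12602 counts per 1000000 UMIs (CPM), and 24, 27 and 25 of 32 such markers reached 10 CPM. The 18 pregranulosa markers in the table summed to 44.6, 39.7 and 20.5 CPM, and the 4 erythroid markers to 0.303, 11.9 and 76.1 CPM, of which 3 reached 10 CPM at E16.5. The 7 endothelial markers summed to 89.3, 26.7 and 17.3 CPM, lower at each later stage as the member sum was, and 2, 2 and 1 of them reached 10 CPM. No pregranulosa, erythroid or endothelial marker was at 0, and the part of such RNA in the results was not tested. The E12.5 library, labelled female, held 667 germ-cell-like cells with UMIs of Y-linked genes, against 0 at both other stages. Of these, 565 lay in a cluster of 618 cells and 102 in other clusters. Pairs of libraries shared between 43 and 72 cell barcodes. Levels are given in CPM over the summed UMIs of a stage, with exact Poisson intervals of 95% that cover counting error only. Because each UMI marks the 3′ end of a molecule, CPM was not divided by gene length. In single libraries, fewer cells expressing a gene and less RNA per cell cannot be told apart in the sums.

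The promoters of 34 of the 40 members were matched by symbol to RefSeq promoter windows on GRCm38.p6, reaching from 250 bases before to 50 after the start of transcription. Mitotic genes are known for the cell cycle homology region, or CHR, through which MuvB complexes act, often with CCAAT boxes, the binding letters of the factor NF-Y. The CHR was searched as TTTGAA and TTCGAA and the CCAAT box as CCAAT, on both strands, with TTCAAA and ATTGG as the letters of the other strand, and the motifs can share no more than an end base. A match is a description of letters and no evidence of binding. A gene was counted if any of its windows held the letters. CHR letters were found for 25 of the 34 members (73.5%), against 21.7% of all 27025 genes with a window. CCAAT letters were found for 25 (73.5%), against 41.1%. Both were found for 23 of the 34 (67.7%), against 8.61% of all genes. Among the 10543 genes of the table with a window, the shares were 15.9% for CHR, 43.2% for CCAAT and 6.79% for both. Among members with a window, the 3 lowest at E16.5 relative to E12.5 (Cenpa, Ube2c and Bub3) and the 2 highest (Bub1 and Ncapg) are shown because their levels went opposite ways. Each runs from 100 bases before to 30 after the start of transcription, 5′ to 3′ on the strand of the gene, with the letters of both motifs in capitals.
Cenpa: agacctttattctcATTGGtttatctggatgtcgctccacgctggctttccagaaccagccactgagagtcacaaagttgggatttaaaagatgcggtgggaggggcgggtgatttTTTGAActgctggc
Ube2c: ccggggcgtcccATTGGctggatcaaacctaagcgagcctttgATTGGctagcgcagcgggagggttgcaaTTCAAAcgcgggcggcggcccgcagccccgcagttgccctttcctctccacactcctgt
Bub3: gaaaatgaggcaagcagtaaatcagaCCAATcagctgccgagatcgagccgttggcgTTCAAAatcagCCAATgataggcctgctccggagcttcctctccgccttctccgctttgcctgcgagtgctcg
Bub1: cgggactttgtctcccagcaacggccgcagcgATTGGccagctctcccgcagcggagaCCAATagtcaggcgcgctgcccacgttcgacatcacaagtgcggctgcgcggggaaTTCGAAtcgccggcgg
Ncapg: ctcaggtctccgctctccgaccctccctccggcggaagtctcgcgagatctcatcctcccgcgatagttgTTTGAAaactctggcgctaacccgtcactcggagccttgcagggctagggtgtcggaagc
These windows lie at chr5:30666786-30666915 (plus strand, Cenpa), chr2:164769829-164769958 (plus, Ube2c), chr7:131560270-131560399 (plus, Bub3), chr2:127831830-127831959 (minus, Bub1) and chr5:45669825-45669954 (plus, Ncapg). All 5 hold CHR letters, and all but that of Ncapg hold CCAAT letters. In the windows from 250 bases before to 50 after the start, 14 of the 16 matched members at least 2-fold lower at E16.5 than at E12.5 had CHR letters (87.5%). Of the other 18 matched members, 11 did (61.1%). In the shorter windows from 100 bases before to 30 after, the order was the other way, with 7 of the 16 (43.75%) and 10 of the other 18 (55.6%). In these shorter windows 8.85% of all genes with a window had CHR letters, and 5.84% of those in the table. Of the 10 matched members that were higher in CPM at E16.5 than at E12.5, 7 had CHR letters in the longer windows and 6 in the shorter ones. The letters therefore stood in windows of members with either direction.

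As a whole, the members took a smaller share of the RNA after E12.5. Their summed level was 5160 CPM at E12.5, 3284 CPM at E14.5 and 3168 CPM at E16.5, or 138.1, 37.8 and 41.2 UMIs per cell at the depth of each library. Their median log2 ratio of CPM was -0.56 for E14.5 over E12.5, against 0.30 for all genes. For E16.5 over E14.5 it was -0.33, against 0.06, and for E16.5 over E12.5 -0.86, against 0.38. The 3 comparisons share libraries and are not independent. At E14.5, 15 members were at least 2-fold lower than at E12.5, where 16.3% of all genes were, and 0 at least 2-fold higher, where 31.1% were. At E16.5, 5 members (Cdca3, Aurkb, Ube2c, Cenpa and Knstrn) were at least 2-fold lower than at E14.5, where 17.4% of all genes were, and 0 at least 2-fold higher, where 16.3% were. Against E12.5, 19 members were at least 2-fold lower at E16.5, where 22.7% of all genes were, and 3 (Smc4, Bub1 and Ncapg) at least 2-fold higher, where 36.9% were. The genes with the largest shares of member UMIs differed by stage: Ube2c (9.52%) and Cenpa (7.76%) led at E12.5, Top2a (9.81%) and Smc4 (8.18%) at E14.5, and Smc4 (16.9%) and Cenpf (9.58%) at E16.5.

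Because all genes had a median above 0 in CPM, the direction of members near 0 depended on the scaling. With median-of-ratios size factors the all-gene medians became -0.03, 0.01 and 0.01. The member medians became -0.89, -0.38 and -1.24. Of the 40 members, 9 were above 0 for E14.5 over E12.5 in CPM and 3 with size factors, and for E16.5 over E12.5 these numbers were 11 and 5. Under size factors Ncapg was no longer 2-fold higher at E16.5 than at E12.5, while Smc4 and Bub1 were, and the members at least 2-fold lower numbered 22. The order of members within a comparison is the same under any of these scalings. Without the cells that held Y-linked UMIs or lay in their cluster the medians were -0.55, -0.33 and -0.87, with the same numbers of members past 2-fold.

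**Figure D1:**
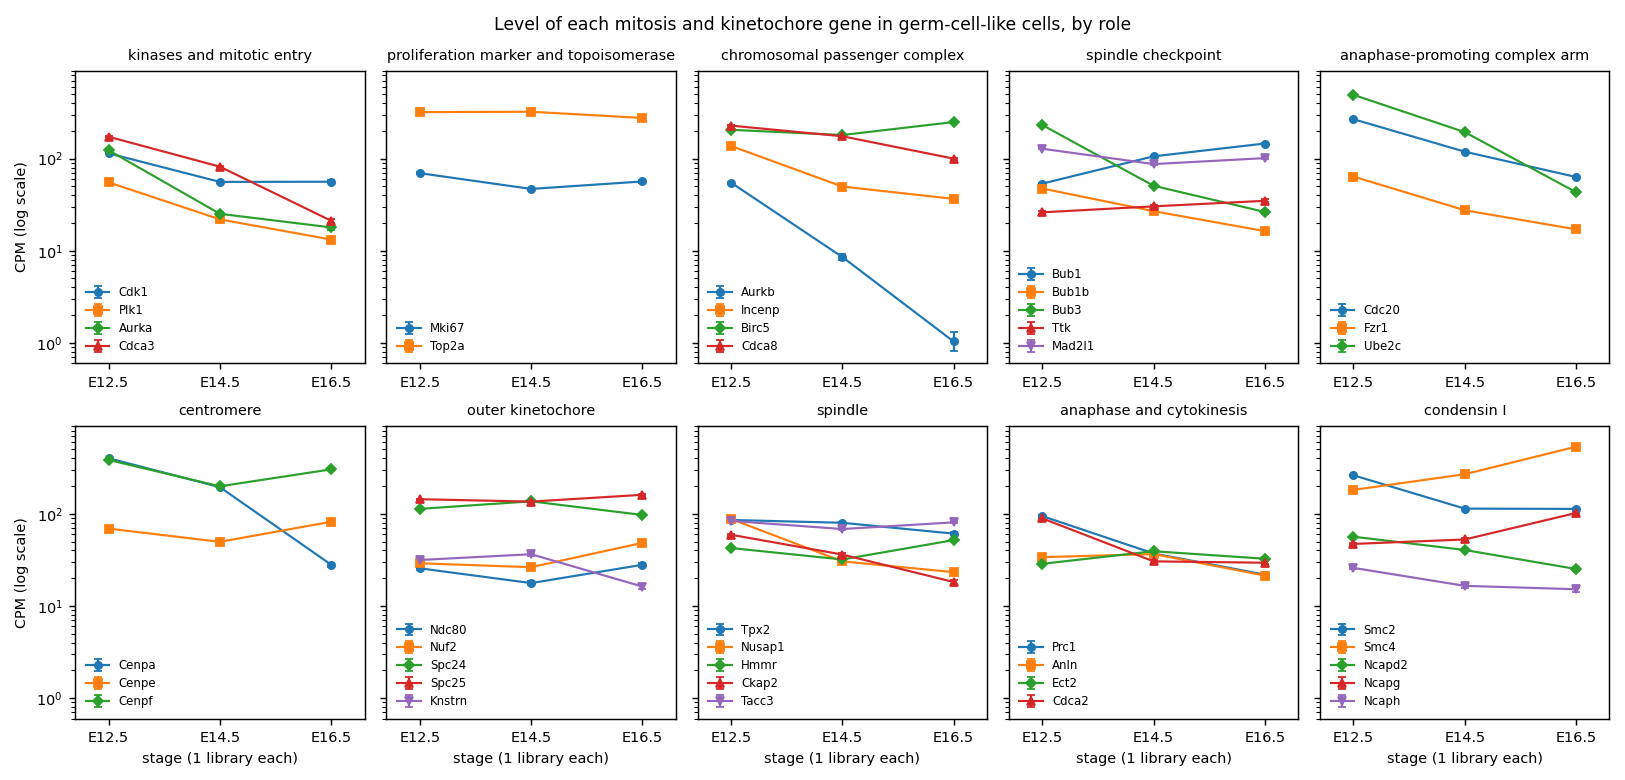
Level of each of the 40 members in germ-cell-like cells (CPM, log scale) at E12.5, E14.5 and E16.5, with 1 panel per role; points are the single library of each stage and bars are 95% Poisson intervals of counting error. Aurkb spans the widest range, 54.8 CPM at E12.5 and 1.04 CPM at E16.5, while Smc4, Bub1, Ncapg and Ttk are higher in CPM at each later stage (with size factors Ncapg and Ttk are lower at E14.5 than at E12.5).

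The kinases and partners of mitotic entry all had levels at E14.5 lower than at E12.5 by 2-fold or more. Cdk1, the kinase that drives entry into mitosis, stood at 114.0 CPM at E12.5, 55.8 CPM at E14.5 and 56.1 CPM at E16.5, so that its levels at the later stages lay within counting error of each other. Plk1, the Polo-like kinase of centrosome maturation and chromosome segregation, had 55.2, 21.9 and 13.2 CPM. Aurka, the Aurora kinase of the spindle poles, had 123.0, 25.2 and 17.9 CPM, a level 4.89-fold lower at E14.5 than at E12.5 and a further 1.40-fold lower at E16.5. Cdca3, an adaptor of the ubiquitin ligase that removes the mitotic inhibitor Wee1, had its larger difference at the second step. It stood at 172.6, 81.7 and 21.1 CPM, 3.86-fold lower at E16.5 than at E14.5. Members of the same role thus differed in timing, Aurka having its larger difference at the first step and Cdca3 at the second.

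The proliferation marker Mki67, a protein that coats mitotic chromosomes, had 69.4, 46.8 and 56.5 CPM at the 3 stages. Top2a, the topoisomerase that untangles replicated DNA, had 319.3, 322.2 and 275.9 CPM. Neither reached a 2-fold difference between any stages, and Top2a at E14.5 was within counting error of E12.5 in CPM. With size factors Top2a was lower at E14.5 than at E12.5.

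The 4 proteins of the chromosomal passenger complex, which corrects the attachment of chromosomes to microtubules and acts again in cytokinesis, separated most widely. Aurkb, its kinase, stood at 54.8 CPM (53.5 to 56.1) at E12.5, 8.55 CPM (7.99 to 9.14) at E14.5 and 1.04 CPM (0.810 to 1.30) at E16.5, where its 72 UMIs were the lowest sum of any member. It was 6.41-fold lower at E14.5 than at E12.5, 8.26-fold lower at E16.5 than at E14.5, and 52.9-fold lower at E16.5 than at E12.5. Incenp, the scaffold that activates Aurkb, had 137.0, 49.7 and 36.6 CPM, and Cdca8 (borealin), which helps to bring the complex to the centromere, had 227.9, 174.7 and 99.9 CPM. Birc5 (survivin), which binds the marked histone at the centromere, went another way, with 205.3, 180.1 and 249.1 CPM. Its level at E16.5 was 1.38-fold that at E14.5 and 1.21-fold that at E12.5, and with size factors it was lower at E16.5 than at E12.5. The kinase of the complex was therefore at 1.04 CPM in a library where its partner Birc5 was at 249.1 CPM.

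The spindle checkpoint also held members with opposite directions. Bub1, the checkpoint kinase that marks the centromere with histone phosphorylation, had 53.5, 105.8 and 145.6 CPM. Its level at E16.5 was 2.72-fold (2.64 to 2.81) that at E12.5. Bub3, the partner that carries Bub1 and Bub1b to the kinetochore, had 231.5, 50.7 and 26.3 CPM, 8.79-fold lower at E16.5 than at E12.5. The partners Bub1 and Bub3 thus crossed between E12.5 and E14.5. Bub1b (BubR1), a part of the checkpoint complex that binds Cdc20, had 47.3, 26.9 and 16.3 CPM. Ttk (Mps1), the kinase that starts checkpoint signalling, had 26.1, 30.3 and 34.8 CPM. Mad2l1, which sequesters Cdc20, had 127.9, 87.2 and 101.1 CPM, so that neither came to a 2-fold difference.

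All 3 members of the anaphase-promoting complex arm stood lower at E14.5 than at E12.5 by 2-fold or more, and lower again at E16.5. Ube2c, the ubiquitin-conjugating enzyme that works with this complex, had 491.4, 193.7 and 43.2 CPM. It held the highest level of any member at E12.5 and was 11.4-fold lower at E16.5. Cdc20, the activator that starts anaphase and the target of the checkpoint, had 267.4, 118.8 and 63.15 CPM. Fzr1 (Cdh1), the activator that takes over at mitotic exit and in the next G1 phase, had 63.8, 27.5 and 17.1 CPM. The summed level of the 3 was 822.6, 340.0 and 123.4 CPM.

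At the centromere, Cenpa, the histone H3 variant that marks it, had 400.3, 194.3 and 28.0 CPM, 6.94-fold lower at E16.5 than at E14.5 and 14.3-fold lower than at E12.5. Cenpf, a large protein of the outer kinetochore and nuclear matrix, had 383.7, 198.6 and 303.4 CPM. Cenpe, the motor protein that moves chromosomes to the spindle equator, had 69.0, 49.6 and 82.0 CPM. Cenpe and Cenpf therefore stood higher at E16.5 than at E14.5, where Cenpa was lower.

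The outer kinetochore role, as grouped here, had summed levels of 343.0, 352.4 and 350.2 CPM, closer to each other than those of any other role. It leaves out Cenpe and Cenpf, which were placed with the centromere. Cenpf alone had 383.7, 198.6 and 303.4 CPM, so this closeness depends on the grouping. Ndc80 and Nuf2, which bind the microtubule as a pair, had 25.6, 17.7 and 27.9 CPM for Ndc80, and 29.0, 26.3 and 48.3 CPM for Nuf2. Their partners in the Ndc80 complex, Spc24 and Spc25, had 113.0, 136.4 and 97.1 CPM for Spc24, and 143.9, 135.5 and 160.6 CPM for Spc25. Knstrn (kinastrin), which helps to align chromosomes, had 31.5, 36.4 and 16.2 CPM and was the only one of the 5 past 2-fold in any comparison. For E16.5 over E12.5 the median log2 ratio of the 5 was 0.13 in CPM and -0.25 with size factors.

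Among the spindle proteins, Nusap1, which bundles microtubules near chromosomes, had 87.7, 30.5 and 23.2 CPM, and Ckap2, a microtubule-binding protein of the spindle, had 59.2, 36.1 and 18.2 CPM. Both were at least 2-fold lower at E16.5 than at E12.5. Tpx2, the activator of Aurka on the spindle, stood at 85.7, 79.8 and 60.9 CPM, a smaller difference than that of Aurka itself. Hmmr, a spindle pole protein and hyaluronan receptor, had 42.5, 31.9 and 51.8 CPM, and Tacc3, a stabiliser of spindle microtubules, had 83.7, 68.3 and 80.7 CPM.

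Of the proteins of anaphase and cytokinesis, Prc1, the crosslinker of the central spindle, had 94.3, 37.1 and 21.9 CPM, 4.31-fold lower at E16.5 than at E12.5. Cdca2 (Repo-Man), which brings a phosphatase to chromosomes as they leave mitosis, had 89.2, 30.5 and 29.4 CPM and stayed within counting error of its E14.5 level at E16.5. Anln, the anillin of the contractile ring, had 33.8, 36.5 and 21.3 CPM, and Ect2, the exchange factor that sets the division plane, had 28.6, 39.2 and 32.5 CPM. No value of Anln or Ect2 lay 2-fold apart from another.

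Condensin I split between its subunits. Smc4, an ATPase subunit shared by condensins I and II, had 181.6, 268.5 and 534.4 CPM, and its level at E16.5 was 2.94-fold (2.89 to 2.99) that at E12.5. Smc2, its partner ATPase in both complexes, had 261.3, 113.7 and 112.9 CPM, 2.31-fold lower at E16.5 than at E12.5. The ratio between the ATPase partners therefore turned over: Smc2 exceeded Smc4 at E12.5, and Smc4 exceeded Smc2 at E14.5 and E16.5. Ncapg, a regulatory subunit, had 47.1, 52.6 and 102.0 CPM, so that it was 1.94-fold higher at E16.5 than at E14.5. The other regulatory subunits were lower at each later stage, Ncapd2 with 56.4, 40.5 and 25.2 CPM and Ncaph with 25.9, 16.5 and 15.2 CPM.

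**Figure D2:**
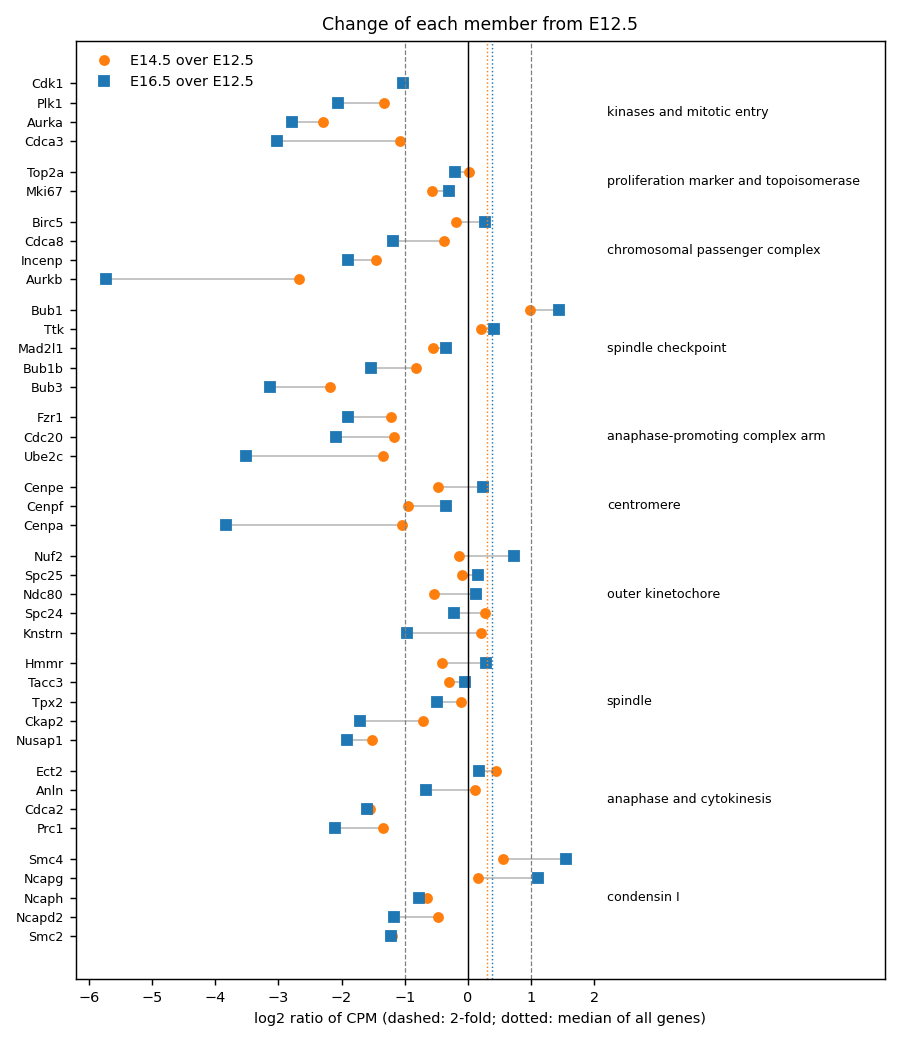
Log2 ratio of CPM for each member at E14.5 (circles) and E16.5 (squares) over E12.5, grouped by role, with dashed lines at 2-fold and dotted lines at the all-gene medians of 0.30 and 0.38. The 3 members beyond 2-fold on the right are Bub1, Smc4 and Ncapg at E16.5, and Aurkb lies farthest to the left.

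In all, 20 members were lower in CPM at both steps, 11 were lower at E14.5 and then higher at E16.5, 5 were higher and then lower, and 4 (Bub1, Ttk, Smc4 and Ncapg) were higher at both. With size factors these numbers were 25, 12, 1 and 2, and Bub1 and Smc4 were the members still higher at both steps. The highest level in CPM was at E12.5 for 25 members, at E14.5 for 5 and at E16.5 for 10, and with size factors for 34, 1 and 5. Of the members, 8 overlap a gene of the opposite strand in the table (Bub3, Cdc20, Fzr1, Ube2c, Nusap1, Tacc3, Prc1 and Ncapg), and since the strand setting of the counting is not given in the sources used here, their UMIs cannot be fully told apart from those of the overlapping genes.

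Genes around the members, taken from lists by function, differed in direction. Their counts stand beside 22.7% of all genes lower and 36.9% higher by 2-fold or more at E16.5 than at E12.5, or 28.8% and 30.1% with size factors. Of 14 other G2 cyclins and Cdk1 regulators, 8 had a level at E16.5 lower than at E12.5 by 2-fold or more, and 1 a level higher by as much, or 10 and 1 with size factors, with a median log2 ratio of -1.39 in CPM. Ccnb1 (cyclin B1), the partner of Cdk1, had 388.3, 60.8 and 14.6 CPM, 26.6-fold lower at E16.5 than at E12.5. Ccnb3, a cyclin needed in oocyte meiosis in mice, had 6.15 CPM at E14.5 and 66.7 CPM at E16.5, and at E12.5 only 7 UMIs. The securin Pttg1, a target of the anaphase-promoting complex, had 284.9, 114.5 and 45.8 CPM and had the lowest ratio of E16.5 over E12.5 among 18 subunits and inhibitors of that complex. The highest ratio was that of Anapc16, with 61.1, 81.3 and 134.0 CPM. Of the 18 genes, 5 were lower by 2-fold or more and 2 higher, or 5 and 0 with size factors.

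Of 21 inner kinetochore genes, 4 had a level at E16.5 lower than at E12.5 by 2-fold or more, and 4 a level higher by as much, or 5 and 4 with size factors. These are 19.0% each way in CPM, near the share of all genes for lower levels and under it for higher ones. Itgb3bp, an inner kinetochore subunit, had 27.4, 55.1 and 121.4 CPM, while Cenpt, a subunit that links the centromere to the Ndc80 complex, had 58.2, 19.8 and 11.6 CPM. Of 19 other outer kinetochore and checkpoint genes, 3 were lower by 2-fold or more and 6 higher, or 4 and 2 with size factors. Spdl1, which brings dynein to the kinetochore, had the highest ratio, with 7.75, 19.7 and 51.1 CPM. Ska1 had the lowest, with 38.5, 16.1 and 12.5 CPM. In a list of 5 meiotic kinetochore genes, which also holds Plk1 and Ccnb3, 2 were lower and 3 higher by this measure, or 2 and 2 with size factors. Meikin, the protector of sister centromere cohesion in meiosis I, had 0.390 CPM at E14.5 and 12.7 CPM at E16.5, with 7 UMIs at E12.5. Rec8, the meiotic cohesin, was highest at E14.5, with 8.66, 201.4 and 18.0 CPM.

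Of 32 other spindle and cytokinesis genes, 9 had a level at E16.5 lower than at E12.5 by 2-fold or more, and 5 a level higher by as much, or 14 and 3 with size factors. In CPM these are 28.1% lower, near the share of all genes, and 15.6% higher, under it. Among the genes that reached 10 CPM at either stage, the lowest ratio was that of Sapcd2, a regulator of spindle orientation, with 38.0, 11.6 and 1.94 CPM, and the highest that of Ckap5, a microtubule polymerase, with 41.6, 87.5 and 126.4 CPM. Of 7 condensin II and cohesin release genes, 1 was lower and 1 higher by 2-fold or more, or 3 and 0 with size factors. In CPM these were Cdca5 (sororin), which keeps sister chromatids together, with 85.9, 19.2 and 13.1 CPM, and Ncapg2, a condensin II subunit, with 14.4, 34.5 and 30.1 CPM. Of 28 S phase genes, 12 were lower by 2-fold or more and 3 higher, or 18 and 1 with size factors. Tyms, the thymidylate synthase, had the lowest ratio, with 173.2, 55.9 and 12.1 CPM. Uhrf1 had the highest, with 6.28, 42.0 and 47.2 CPM.

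To compare single cells across libraries of unequal depth, each cell was thinned to 5000 UMIs, which left out 0, 11 and 25 shallower cells. The median number of member UMIs per cell was 24 at E12.5, 15 at E14.5 and 16 at E16.5, with 5th to 95th percentiles of 13 to 43, 8 to 29 and 9 to 24. The spread between cells, given as variance over mean (1 for counting alone), was 3.497, 2.67 and 1.42. This measure grows with the mean, and relative to the mean the SD was 0.369, 0.407 and 0.299. E16.5 was the lowest by either measure, and the order of E12.5 and E14.5 depended on the measure. The 19, 164 and 23 cells with pregranulosa markers had medians of 3, 2 and 5 member UMIs. At E12.5 the cells of the Y-linked cluster had a median of 26 and those of the main cluster 24, and a cluster of 68 cells, with a median depth of 10596 UMIs, had 33. At E14.5 the median was 22 in a cluster of 1093 cells and 13 to 17 in the other clusters.

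**Figure D3:**
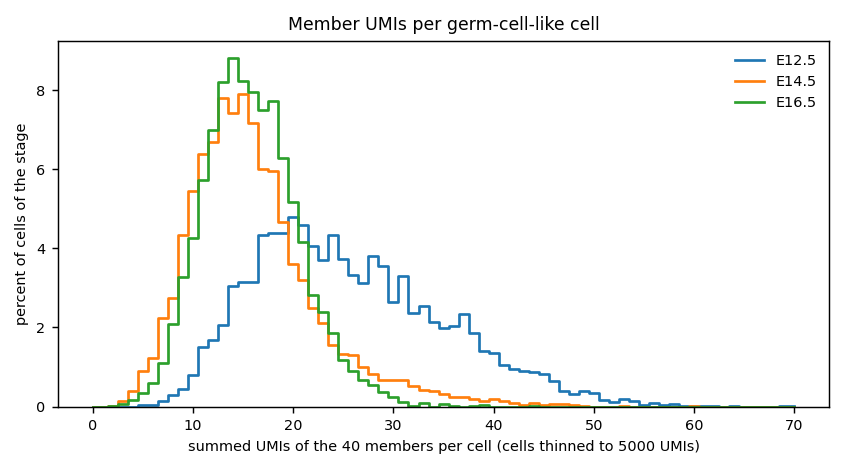
Distribution of the summed UMIs of the 40 members per germ-cell-like cell, after thinning each cell to 5000 UMIs, as percent of the cells of each stage. The E12.5 curve is widest in UMIs, with a median of 24, while those of E14.5 (15) and E16.5 (16) overlap, and E14.5 has the longer right tail.

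Pearson correlations between members over thinned cells of 1 library, given with no test, were low. Many members averaged well under 1 UMI per thinned cell, such as Plk1 with 0.283, 0.0915 and 0.0653. Counting error at such levels holds r down, so low values do not show that members were unrelated. Over the 780 pairs of members the median r was 0.03 at E12.5, 0.02 at E14.5 and 0.01 at E16.5, and 7, 12 and 0 pairs exceeded 0.2. Cdc20 with Ube2c was the highest pair at E12.5 (r = 0.34) and at E14.5 (r = 0.37), and Top2a with Bub1 at E16.5 (r = 0.17). Among other genes, the member sum went most closely with Arl6ip1 (0.41), Cks2 (0.39) and Ccnb1 (0.38) at E12.5 and with Ccnb1 (0.42), Cks2 (0.33) and Ube2s (0.32) at E14.5. At E16.5 the closest were Ncl (0.18), Smc3 (0.17) and Ssb (0.14). Cyclin B1 thus stood among the closest genes at the 2 earlier stages and not among the 10 closest at E16.5. Its level was 388.3 and 60.8 CPM at the earlier stages and 14.6 CPM at E16.5. So few UMIs limit the r it can reach, and a change of relation cannot be read from this. The r of the member sum with summed S phase genes was -0.48, -0.04 and 0.14, and with library depth before thinning 0.04, 0.17 and -0.03.

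To follow the members within each stage, cells were ranked by the sum of 4 other genes of G2 and mitosis (Ccnb1, Ccnb2, Ccna2 and Cks2), and the top 10% with its ties was set against the remaining cells. These were 540, 1054 and 970 cells, at or above 14, 7 and 4 cyclin UMIs, and 481, 780 and 1561 cells lay within 1 UMI of that number. With ties they made up 11.5%, 11.8% and 18.3% of the thinned cells, so the medians of the 3 stages rest on unlike shares of cells. This is a range along a score and no cell type. At E14.5 the median member was 1.501-fold higher in cyclin-rich cells than in other cells, against 1.00 for all genes, and 11 members were at least 2-fold higher, where 8.23% of all genes were. At E12.5 the median was 1.27 and 0 members were at least 2-fold higher, where 2.59% of all genes were. At E16.5 the median was 1.09, the same as for all genes, and 3 members (Plk1, Cenpa and Aurkb) were at least 2-fold higher, where 4.93% were. The folds of Plk1 (2.16, 1.71 to 2.72) and Cenpa (2.19, 1.84 to 2.59) had intervals that reached below 2. That of Aurkb (4.85, 2.04 to 11.6) rested on 25 thinned UMIs. The count of members at least 2-fold lower in cyclin-rich cells was 0 at each stage, where 4.59% of all genes were at E12.5, 9.89% at E14.5 and 2.29% at E16.5.

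The steepest members at E14.5 were kinases and regulators of the anaphase-promoting complex. Plk1 averaged 0.360 UMIs in cyclin-rich cells and 0.0554 in other cells, a ratio of 6.49 (5.64 to 7.46), and 46.6% of its UMIs lay in these 11.8% of the cells. Aurka averaged 0.330 and 0.0743 UMIs (4.44-fold), Cdc20 1.72 and 0.395 (4.34-fold), and Ube2c 2.42 and 0.644 (3.75-fold). Bub3 (3.59-fold) and Cenpa (3.26-fold) followed. The 4 members with intervals below 1 went the other way. Top2a averaged 0.931 UMIs in cyclin-rich cells and 1.74 in other cells, a ratio of 0.534, Spc24 had a ratio of 0.582, Bub1 of 0.645 and Smc4 of 0.762. Bub1 and Smc4, which were higher at later stages, were thus lower in the cells highest in the summed Ccnb1, Ccnb2, Ccna2 and Cks2 at E14.5. The cyclin-rich cells of E14.5 also averaged more Pou5f1 (1.33 UMIs, against 0.619 in other cells), the pluripotency gene of primordial germ cells, and less of the meiotic genes Stra8 (4.08, against 7.76) and Sycp3 (1.40, against 4.22). Their median depth was 13155 UMIs, against 10775 in other cells, and the part of depth was not tested.

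**Figure D4:**
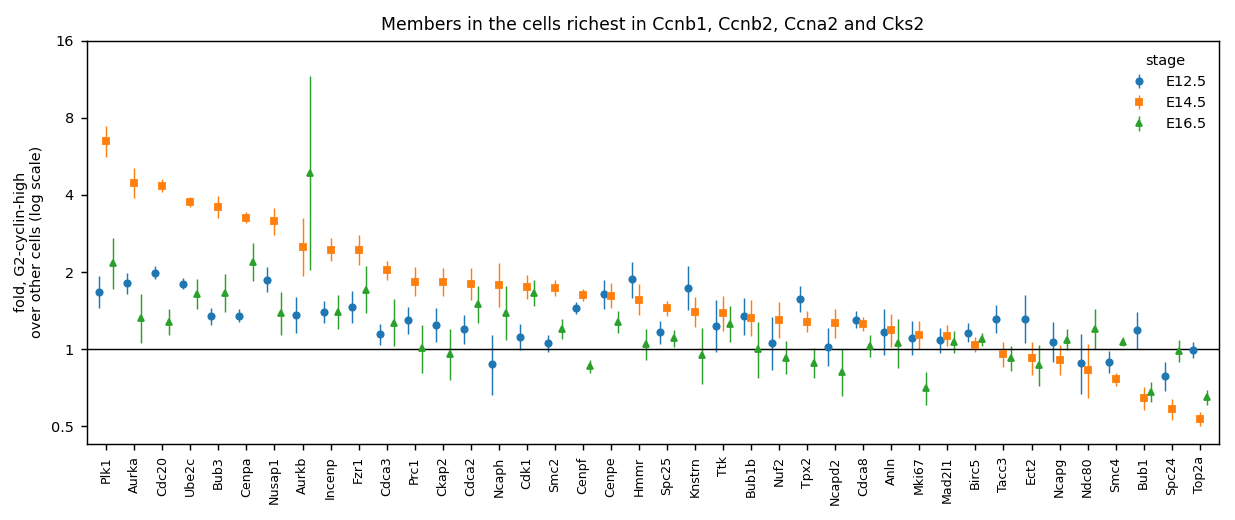
Mean UMIs per thinned cell in cyclin-rich cells over other cells (fold, log scale), for each member at E12.5, E14.5 and E16.5, ordered by the E14.5 fold, with intervals of 95% for counting error. At E14.5 members spread between 6.49 for Plk1 and 0.534 for Top2a, and at E12.5 none exceeds 1.99.

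The differences between stages were also computed among the cells below these cyclin numbers, a comparison chosen after the data were seen. There the median log2 ratio was -0.59 for E14.5 over E12.5 and -0.87 for E16.5 over E12.5, with 15 and 19 members at least 2-fold lower. For E16.5 over E14.5 the median was -0.068, against -0.33 over all cells, with 5 members at least 2-fold lower in either. Ratios below the cyclin numbers are of mean UMIs per thinned cell, and those over all cells are of CPM. The part of this change of measure in the medians is not separated here. For Plk1 and Aurka the same measure was at hand. Over all thinned cells Plk1 averaged 0.0915 UMIs at E14.5 and 0.0653 at E16.5, and Aurka 0.105 and 0.0894. Below the cyclin numbers these means were 0.0554 and 0.0539 for Plk1, and 0.0743 and 0.0845 for Aurka. Plk1 had a log2 ratio of -0.042 there and Aurka of 0.18, while Cenpa (-2.85), Ube2c (-1.82) and Cdca3 (-1.86) were far lower at E16.5 than at E14.5 in these cells too. Among cells below the cyclin number of their stage, then, the difference between E14.5 and E16.5 differed by gene. That number was 7 UMIs at E14.5 and 4 at E16.5, so these cells were not held to a common level of the 4 genes.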

How the data were processed

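RNA of single cells was captured at 3 stages, 1 library each, with the 10x Genomics Chromium 3′ version 2 kit, per the labels' protocols. Cell Ranger 2.0.0, FastQC and build mm10 (GRCm38) were used, per the submitters' processing notes, and nothing used here gives their settings, the strand of counting or filters on cells. The authors deposited the natural log of 1 plus UMIs per 10000 of each cell. Undoing the log gave whole UMIs for 100.0000% of 68606039 values above 0 (tolerance 0.01 UMI), and stage sums of these were used in CPM; 0 sample columns were left unused. Cells were clustered (2000 variable genes, 30 components, 15 neighbours, Leiden resolution 0.5) and 1 pregranulosa-like cluster removed. No doublet caller was run, and leaving out the deepest 1% of cells was an alternative. Ratios carry exact 95% intervals conditional on the summed counts, for counting error only. For the widest member (Aurkb at E16.5, 0.810 to 1.30 around 1.04 CPM) the sides of the interval averaged 23.8% of the level. With 1 library per stage, no p-value was computed, and values past 2-fold were counted instead. All members were accounted for by role. Members with the largest and smallest ratios of a role, or going against it, were given at every stage, and from other lists the genes of at least 10 CPM with the largest ratio each way. The members and lists were chosen with earlier results of these data known. Alternatives were other scalings, cell sets, thinning and the mean of log values. The calculations were tested on simulated data. Python 3.11.15, numpy 2.4.6, scipy 1.17.1, scanpy 1.11.5, scikit-learn 1.9.0, leidenalg 0.10.2, pandas 2.3.3 and matplotlib 3.10.9 were used. Gene positions came from GENCODE and promoters from RefSeq, both on GRCm38.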

Additional observations from a re-analysis of the deposited data

How the results depend on the processing

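No member median changed direction under any alternative run. For E14.5 over E12.5 the median log2 ratio of the members was -0.89 with median-of-ratios scaling, -0.83 with TMM scaling and -0.24 as a difference of mean log values, by which 3 members were at least 2-fold lower. One member, Bub1, was at least 2-fold higher (1 as a mean over cells of CPM, 1 in thinned cells and 1 in cells below the cyclin number, an alternative chosen after the data were seen). For E16.5 over E14.5 the median was -0.42 with TMM scaling, with 8 members at least 2-fold lower, -0.033 as a difference of mean log values, with 0 lower, and -0.068 below the cyclin number. Here 1 member, Smc4, was at least 2-fold higher with all cells of the table, without the deepest cells and in thinned cells. For E16.5 over E12.5 the median was -1.24 with median-of-ratios scaling, -1.22 with TMM scaling and -0.25 as a difference of mean log values, with 5 members lower and 1 higher. At E14.5 the median fold in cyclin-rich cells was 1.28 with the top 20% of cells. The mean of log values averages cells in which most members have 0 or few UMIs. The cause of the other differences was not tested. No paired analysis was possible because each stage was 1 library and the labels carry no replicate numbers. For the same reason no replicate could be left out. Depth limits Aurkb at E16.5 most, with 72 UMIs.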
